A study of Mus musculus with 6 samples.

Results

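The RNA exosome core and catalytic subunits were followed on 6 arrays as 10 transcripts, Exosc2, Exosc3, Exosc4, Exosc5, Exosc7, Exosc8, Exosc9, Exosc10, Dis3 and Dis3l. They were found by the gene name of each non-control probe, and all 10 were measured, out of 14426 genes tested and 22221 named on the array. The line studied, G1E-ER-GATA-1, consists of mouse erythroid progenitors that have lost Gata1 and express instead a GATA-1 protein joined to the hormone-binding part of the estrogen receptor. Adding β-estradiol therefore switches GATA-1 on. One group received siRNA against SetD8 (gene symbol Kmt5a, formerly Setd8), which places a single methyl group on lysine 20 of histone H4, on 3 arrays. The other received non-targeting control siRNA, also on 3 arrays. Cells of both groups were transfected at 0 h and again at 24 h, were given β-estradiol for 24 h, and were harvested at 48 h. All arrays are of 1 cell line, and no array shows cells without β-estradiol. The labels do not state whether the replicate arrays of 1 group are independent cultures. Each p-value therefore reflects the spread among these arrays alone, and that spread may be technical.

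The exosome degrades and trims RNA from its 3′ end. Its core is a barrel of RNase PH-like subunits topped by an RNA-binding cap, and in mammals the core itself is inert. The catalytic subunits, DIS3 or DIS3L at the base and EXOSC10 at the top, do the cutting, and cofactor complexes in the nucleus and cytoplasm bring the RNA. In mouse erythroid precursors GATA-1 and Foxo3 are known to repress genes of exosome subunits, and the complex is known as a barrier to maturation.

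On the 6 arrays 60.3% to 68.6% of non-control spots were well above background in the SetD8 siRNA group, against 40.2% to 82.5% in the control siRNA group. All 10 erythroid markers found on the array were well above background on every array. Their summed signal was 1896 to 2778 times the array's 75th percentile with SetD8 siRNA and 1682 to 3384 times with control siRNA. Some markers of other cell types were also well above background on all SetD8 arrays. These were 6 of 7 megakaryocyte, 2 of 6 mast cell, 4 of 8 granulocyte and macrophage, 5 of 7 lymphoid and 4 of 6 stromal and endothelial markers. On all control arrays the counts were 3, 1, 4, 3 and 2. The summed signal of each of these lists was at most 124 times the 75th percentile on any array. SetD8 arrays 1 and 2 shared slide 1 with control array 1, SetD8 array 3 shared slide 3 with control array 3, and control array 2 had slide 2 to itself and a different scan day. Values are given in 2 settings. The first is the log2 processed signal minus the array's 75th percentile. The second is the log2 signal after normexp background correction and quantile normalization, which reduced the median residual SD over genes to 0.21, against 0.49 in the first. Precision is limited throughout by how few arrays there are.

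Setd8 itself was lower on each SetD8 array than on each control array, on both of its probes. After normexp and quantile normalization its log2 signal on the brighter probe was 9.58, 9.26 and 9.25 on SetD8 arrays 1 to 3, against 11.50, 11.58 and 11.25 on control arrays 1 to 3. This is −2.08 ± 0.15 (SE), or 4.23-fold lower (limma adjusted p = 0.00857). The 75th percentile scaling gave −2.23 (adjusted p = 0.561). The dimmer probe gave −1.13 after normexp and quantile normalization, and an exact permutation test (two-sided) gave 0.1 for either probe, which no comparison of 3 with 3 arrays can go below.

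No exosome subunit passed the test in either of these settings. Exosc8, Dis3 and Exosc7 had the most negative differences, and after normexp and quantile normalization each of the 3 was below its control arrays on all 3 SetD8 arrays. Their differences of −0.63, −0.64 and −0.46 correspond to 1.54-fold, 1.55-fold and 1.38-fold lower signal, with limma adjusted p of 0.0723, 0.0678 and 0.211. Some alternatives on top of that setting, chosen after seeing the data, called subunits while calling more genes in all. Over genes detected on all arrays, 2 of 10 subunits passed, Exosc8 (adjusted p = 0.0349) and Dis3 (adjusted p = 0.0324), against 631 of 10821 genes (5.83%). With trend and robust moderation the same 2 passed (adjusted p = 0.00871 and 0.0126), against 995 of 14426 genes (6.9%). With array weights Exosc7 passed too (adjusted p = 0.026), beside Exosc8 (0.0113) and Dis3 (0.00763), so 3 of 10 against 2060 genes (14.3%). Array weights at the 75th percentile scaling called 4 of 10, Exosc3, Exosc7, Exosc8 and Dis3, against 3085 genes (21.4%). After normexp and quantile normalization the 7 subunits other than Exosc7, Exosc8 and Dis3 had differences between −0.29 and 0.03, and their groups overlapped. Differences near −0.6 and near 0 were found both among the catalytic subunits and in the core. In bulk RNA, fewer cells that express a transcript and less of it per cell cannot be told apart.

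Of the 10 subunits, 0 were called at the 75th percentile scaling, where limma called 0 of 14426 genes (0%). There 0 had an unadjusted p under 0.05, against 508 genes (3.52%), and 0 were below their controls without overlap, against 369 genes (2.56%). All 10 differences were negative, against 6612 genes (45.8%), with a median of −0.30 for the subunits and 0.06 for all genes tested. Without control array 2 that median was −0.04, and Exosc2, Exosc4, Exosc9, Exosc10 and Dis3l had positive differences. After normexp and quantile normalization 0 subunits were called, against 238 genes (1.65%), 36 of them lower (0.25%). Then 8 of 10 differences were negative, against 6609 genes (45.8%), with a median of −0.14 for the subunits and 0.03 for all genes. Exosc7, Exosc8 and Dis3 had an unadjusted p under 0.05, and all 3 were lower. That is 3 of 10, against 2302 genes (16%) in either direction and 984 genes (6.82%) lower. The same 3 were below their controls without overlap, against 1534 genes (10.6%).

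**Figure D1:**
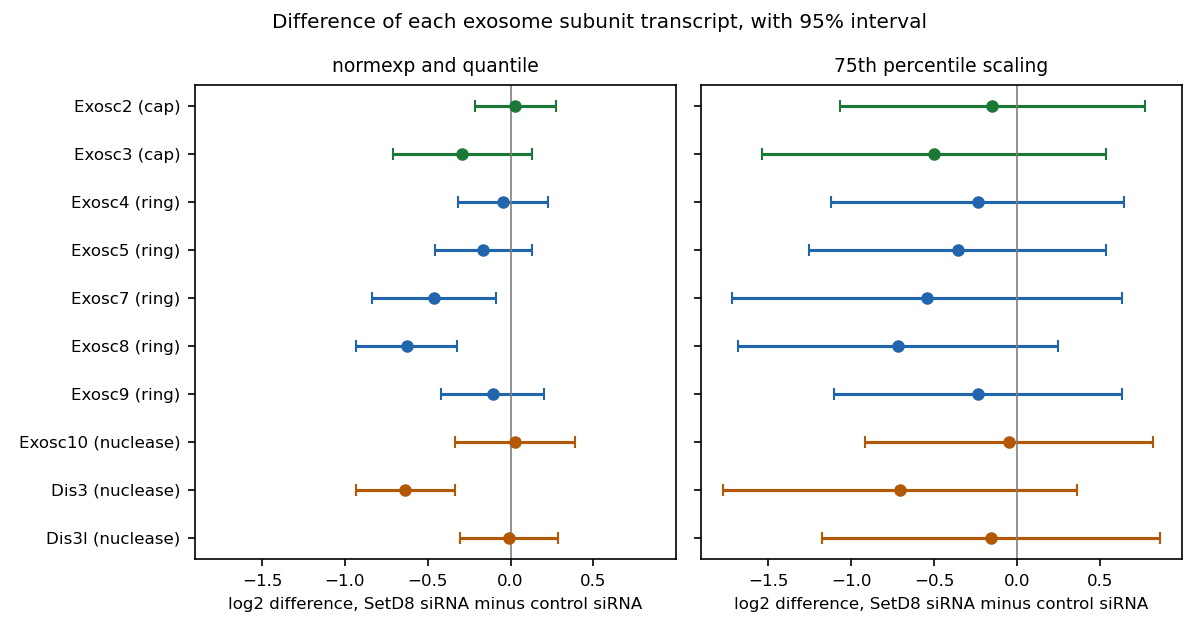
Log2 difference of each subunit, SetD8 siRNA minus control siRNA, with its 95% interval, after normexp and quantile normalization on the left and at the 75th percentile scaling on the right; colours mark cap, ring and nuclease subunits. The intervals of Exosc7, Exosc8 and Dis3 lie below 0 on the left, from −0.94 to −0.09 in all, and all 10 intervals on the right include 0.

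EXOSC2 and EXOSC3 belong to the cap, which guides RNA into the barrel. Exosc3 had log2 signals of 8.63, 8.32 and 8.60 on SetD8 arrays 1 to 3 and 8.96, 8.96 and 8.50 on control arrays 1 to 3 after normexp and quantile normalization. SetD8 arrays 1 and 3 were above control array 3, so the groups overlapped. The difference was −0.29 ± 0.17 (SE) with a 95% interval of −0.71 to 0.13. Exosc2 had 17.71, 17.83 and 17.81 against 17.76, 17.72 and 17.79, a difference of 0.03 with an interval of −0.22 to 0.27. The control values of Exosc2 lay inside the range of its SetD8 values.

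The probes of Exosc2 and Exosc9 carry sequence that is also found in the promoters of many other genes. Their values may not be those of the named transcript alone, but transcripts were not searched for this sequence. A stretch of the Exosc2 probe (chromosome 2, 31536706 to 31536765, mm9, plus strand), which in background terms resembles a B2 repeat, and a stretch of the Exosc9 probe (chromosome 3, 36464428 to 36464487, mm9, plus strand), a GT repeat, are shown because they bear on what those probes measure. Capitals mark bases in 16-base words found, on either strand, in at least 10 mouse promoters.
Exosc2 probe, 5′ to 3′: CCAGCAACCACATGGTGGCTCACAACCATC
Exosc9 probe, 5′ to 3′: tggtggatcTCTGTGTGTGTGTGTGTGTAT
Over the whole 60-base probe, 44 bases of Exosc2 and 21 bases of Exosc9 are so marked. The Exosc2 probe shared a 16-base word with 126 of 32851 promoters and with 4 other probes of the array, and the Exosc9 probe with 177 promoters and 115 other probes. The probes that stand for the other 8 subunits shared such a word with 0 or 1 promoter and 0 other probes. The Exosc2 probe read 187012 to 217197 intensity units on the SetD8 arrays and 229518 to 316574 on the control arrays. The part of the shared sequence in these values was not tested.

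EXOSC4 and EXOSC5 are ring subunits related to bacterial RNase PH. Exosc4 had log2 signals of 10.63, 10.79 and 10.56 with SetD8 siRNA and 10.65, 10.69 and 10.77 with control siRNA. The highest and the lowest of its 6 values were both SetD8 arrays. Its difference was −0.05 with an interval of −0.32 to 0.23. Exosc5 had 12.60, 12.86 and 12.60 with SetD8 siRNA and 12.78, 12.90 and 12.87 with control siRNA. SetD8 arrays 1 and 3 were below all controls and SetD8 array 2 was among them, and the difference was −0.16 with an interval of −0.46 to 0.13.

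EXOSC7, EXOSC8 and EXOSC9 form the other part of the ring. Lowering Exosc8 is known to promote maturation of mouse erythroid precursors. Its probe is shown because its transcript had 1 of the 2 largest differences. The 60 bases span 145 bases of the genome (chromosome 3, 54535935 to 54536079, mm9, minus strand), so the probe crosses an intron.
Exosc8 probe, 5′ to 3′: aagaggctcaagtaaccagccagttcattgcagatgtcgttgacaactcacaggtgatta
Exosc8 read 11.82, 11.53 and 11.85 on SetD8 arrays 1 to 3 and 12.33, 12.35 and 12.40 on control arrays 1 to 3. The control arrays lay close together, and all 3 SetD8 arrays were below them. The difference was −0.63 ± 0.13 (SE) with a 95% interval of −0.93 to −0.32. At the 75th percentile scaling Exosc8 read 4.19, 3.88 and 4.38 on the SetD8 arrays and 4.95, 5.44 and 4.21 on the control arrays, and the groups overlapped through control array 3. There the difference was −0.72 ± 0.41 (SE), with a limma adjusted p of 0.927.

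Exosc7 read 10.94, 10.67 and 10.77 on the SetD8 arrays and 11.29, 11.47 and 11.01 on the control arrays after normexp and quantile normalization. SetD8 array 1 and control array 3 lay next to each other, without overlap of the groups. The difference was −0.46 ± 0.16 (SE) with an interval of −0.84 to −0.09. The 75th percentile scaling gave −0.54 ± 0.50 (SE), and there the groups overlapped. Control array 3, at 2.81, was below the SetD8 arrays, which read 3.35, 3.15 and 3.30. Exosc9, whose loss is likewise known to promote maturation, read 9.87, 9.68 and 10.03 with SetD8 siRNA and 9.91, 9.95 and 10.04 with control siRNA. The groups overlapped, and the difference of −0.11 had an interval of −0.42 to 0.20.

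**Figure D2:**
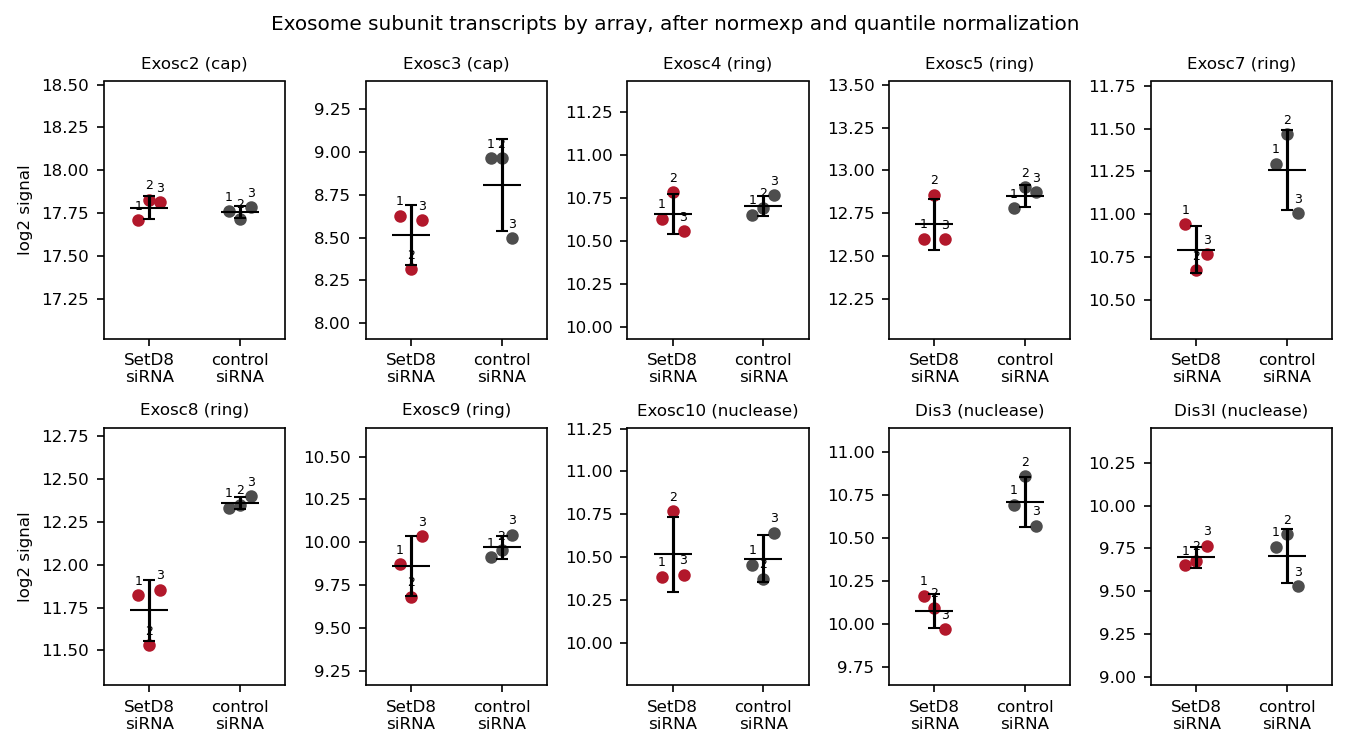
Log2 signal of each subunit after normexp and quantile normalization, 1 point per array with its replicate number, SetD8 siRNA left and control siRNA right, with the mean and SD of 3 arrays; every panel spans the same height on its own level. Exosc8 and Dis3 show the widest gap between groups, with SetD8 arrays at 11.53 to 11.85 and 9.97 to 10.16, against control arrays at 12.33 to 12.40 and 10.57 to 10.86.

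DIS3 is the nuclear catalytic subunit, with exonuclease and endonuclease activity. Dis3 read 10.16, 10.09 and 9.97 on SetD8 arrays 1 to 3 and 10.696, 10.86 and 10.57 on control arrays 1 to 3. All 3 SetD8 arrays were below all controls. The difference was −0.64 ± 0.13 (SE) with an interval of −0.94 to −0.34. At the 75th percentile scaling it was −0.71 ± 0.45 (SE), and control array 3, at 2.38, was below the SetD8 arrays, which read 2.54, 2.56 and 2.49. Dis3l, the cytoplasmic counterpart of Dis3, had a difference of −0.01 with an interval of −0.31 to 0.29. It read 9.65, 9.68 and 9.77 with SetD8 siRNA and 9.76, 9.83 and 9.53 with control siRNA, and the groups overlapped. Exosc10, the nuclear exonuclease at the cap side, read 10.39, 10.77 and 10.40 against 10.46, 10.37 and 10.64. Its difference was 0.03 with an interval of −0.34 to 0.39, and its second probe gave −0.05.

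The core subunits that complete the ring and cap, Exosc6 and Exosc1, were also measured. Exosc1, a cap subunit, after normexp and quantile normalization read 7.995, 7.90 and 8.01 on the SetD8 arrays and 8.31, 8.72 and 8.12 on the control arrays, a difference of −0.42 with a limma adjusted p of 0.307. Exosc6, a ring subunit, read 11.30, 11.53 and 11.14 against 11.55, 11.62 and 11.59, a difference of −0.26 with an adjusted p of 0.404. Neither passed the test. In that setting all SetD8 arrays were below all controls for both, as for 10.6% of all genes. On the dimmer probe of Exosc1 the groups overlapped after normexp and quantile normalization. At the 75th percentile scaling they overlapped for Exosc6 and for the brighter probe of Exosc1. The dimmer probe was there lower without overlap, by −0.90 (exact permutation p = 0.1).

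Slides were compared because arrays of both groups shared slides 1 and 3. After normexp and quantile normalization the difference of Exosc8 was −0.66 within slide 1 and −0.55 within slide 3, and that of Dis3 was −0.57 and −0.60. Exosc7 had −0.49 and −0.24. Exosc3 had −0.49 within slide 1 and 0.11 within slide 3. The median over the 10 subunits was −0.12 within slide 1 and −0.22 within slide 3, against 0.00 and 0.04 over all genes. At the 75th percentile scaling the sign depended on the slide, with 0 of 10 differences positive and a median of −0.34 within slide 1, and 10 of 10 positive and a median of 0.42 within slide 3. All genes had medians of −0.09 and 0.32 there, with 6251 and 9556 of 14426 differences positive. With slide as a block after normexp and quantile normalization, Exosc8 had −0.61 and Dis3 had −0.58, with limma adjusted p of 0.199 and 0.172. In that fit 0 of 10 subunits were called, against 19 genes (0.132%), and 2 of 10 had an unadjusted p under 0.05, against 2033 genes (14.1%).

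**Figure D3:**
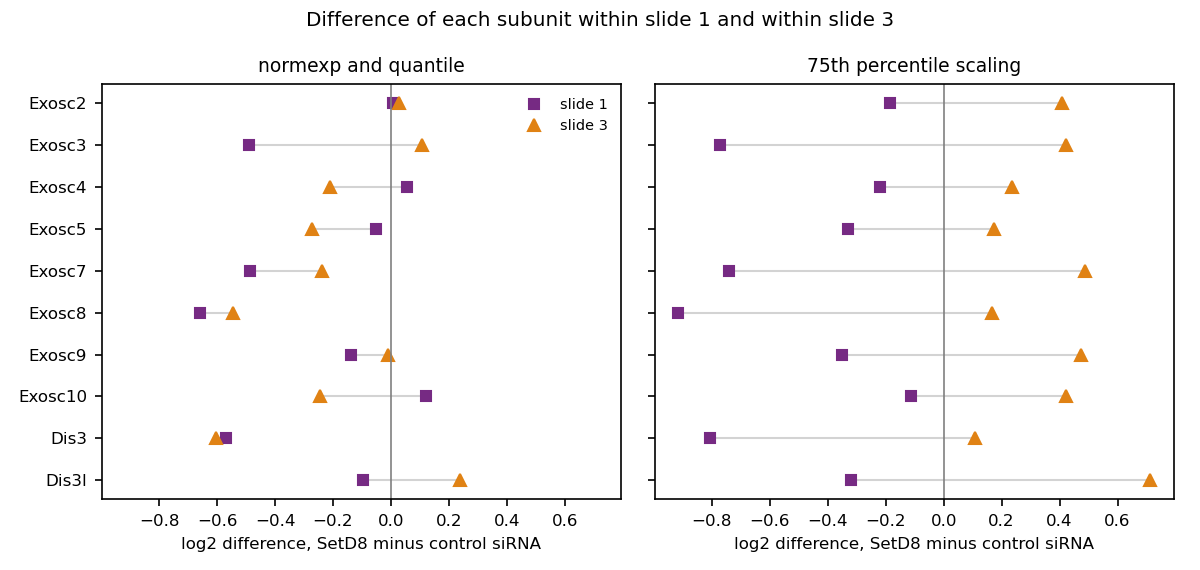
Log2 difference of each subunit, SetD8 siRNA minus control siRNA, within slide 1 (squares, 2 SetD8 arrays and 1 control array) and within slide 3 (triangles, 1 array each), in both settings. Exosc8 and Dis3 are below −0.5 on both slides on the left, and all 10 subunits lie above 0 on slide 3 on the right.

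A subunit set against the other subunits of its own array is not moved by a scale factor of that array. This measure was added after the data were seen. At the 75th percentile scaling Exosc8 lay 0.75, 0.36 and 0.85 log2 units above the mean of the other 9 subunits on SetD8 arrays 1 to 3, and 1.04, 1.03 and 1.06 above it on control arrays 1 to 3. The groups did not overlap, and the difference was −0.39. Dis3 lay at −1.08, −1.10 and −1.25 against −0.73, −0.61 and −0.97, a difference of −0.38. Dis3l lay at −1.75, −1.79 and −1.73 against −1.94, −1.91 and −2.12, a difference of 0.23. Each of these 3 had an exact two-sided permutation p of 0.1, the smallest possible, or 0.333 after Benjamini-Hochberg adjustment over 10 subunits. The other 7 overlapped in that setting. With Exosc2 and Exosc9 left out of the mean, the differences were −0.35 for Exosc8, −0.34 for Dis3 and 0.29 for Dis3l. In the other setting, normexp with quantile normalization, 2 subunits were lower without overlap, Exosc8 by −0.44 and Dis3 by −0.45, and 2 were higher, Exosc2 by 0.29 and Dis3l by 0.25. Each of these 4 had an exact permutation p of 0.1, or 0.25 adjusted over 10 subunits. No ratio could pass this test in either setting, because its smallest possible p of 0.1 already lies above the threshold used. These p-values therefore cannot decide whether a ratio differed between the groups. The differences over the 10 subunits sum to 0 by construction. A subunit can thus be higher on this measure without a higher signal of its own. The signal of Dis3l itself differed by −0.15 in the 75th percentile setting and by −0.01 in the other. For Exosc2 these were −0.15 and 0.03. The ratios are made from the same signals as the differences above and are not separate evidence. The share of all genes whose groups would be apart on such a measure was not computed.

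**Figure D4:**
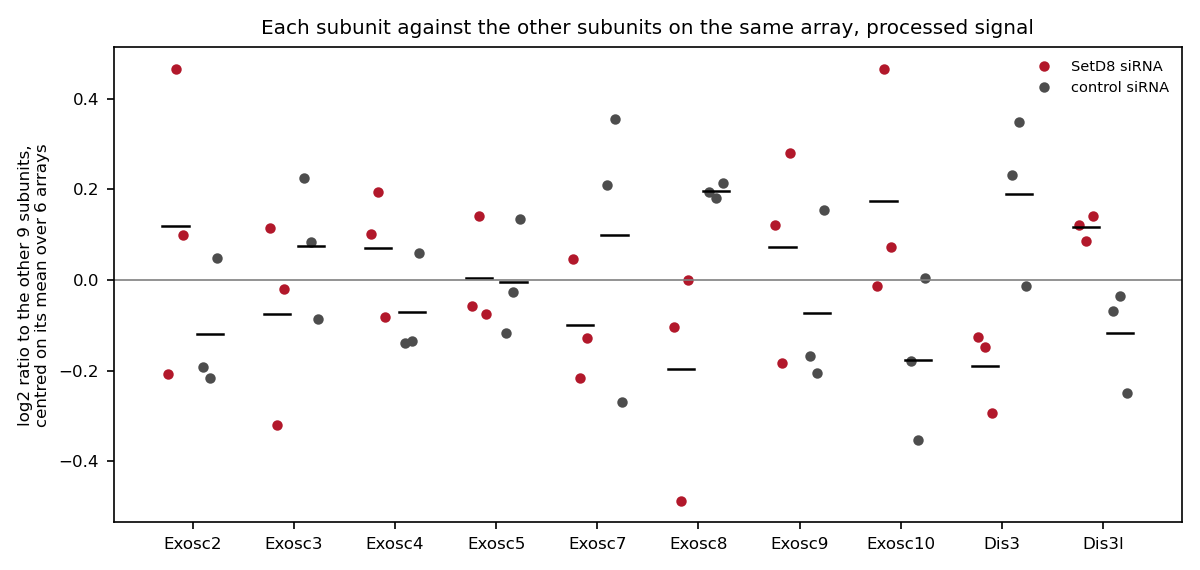
Log2 ratio of each subunit to the mean of the other 9 on the same array at the 75th percentile scaling, centred on its mean over 6 arrays, 1 point per array and a line at each group's mean, SetD8 siRNA left of control siRNA. The groups are apart for Exosc8 and Dis3, with SetD8 siRNA lower, and for Dis3l, with SetD8 siRNA higher, and they overlap for the other 7.

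Promoter sequence was available for 8 of the 10 subunits, in 10 windows of 250 bases before to 50 after the start, from RefSeq on GRCm38.p6. Exosc4 and Exosc9 are named only. The promoters of Exosc8 (chromosome 3, 54735315 to 54735614, minus strand) and Dis3 (chromosome 14, 99099721 to 99100020, minus strand) are shown because their transcripts had the largest differences. Capitals mark CG dinucleotides.
Exosc8 promoter, 5′ to 3′: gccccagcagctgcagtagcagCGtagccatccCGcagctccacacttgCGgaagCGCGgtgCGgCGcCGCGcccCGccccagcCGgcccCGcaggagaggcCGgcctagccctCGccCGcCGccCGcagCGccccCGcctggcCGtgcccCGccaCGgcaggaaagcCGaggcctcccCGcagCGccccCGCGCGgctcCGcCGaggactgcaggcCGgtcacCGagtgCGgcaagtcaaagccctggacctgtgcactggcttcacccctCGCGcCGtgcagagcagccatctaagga
Dis3 promoter, 5′ to 3′: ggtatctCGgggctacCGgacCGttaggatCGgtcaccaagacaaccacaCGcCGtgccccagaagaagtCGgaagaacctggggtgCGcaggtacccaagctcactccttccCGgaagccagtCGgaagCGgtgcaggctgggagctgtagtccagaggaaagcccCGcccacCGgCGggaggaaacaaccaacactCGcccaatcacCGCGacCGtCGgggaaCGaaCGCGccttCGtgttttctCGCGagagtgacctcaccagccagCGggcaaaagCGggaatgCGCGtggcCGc
The Exosc8 window holds 36 CG dinucleotides and the Dis3 window 30. The 10 windows of subunits held 11 to 41 with a median of 27, against a median of 7 over 32851 promoters, and all 10 were above that median. Their median GC content was 66.0%, against 52.7% over all promoters. Windows were searched on both strands for the GATA motif WGATAR, that is GATA preceded by A or T and followed by A or G. It was found in 0 of the 10 windows and in 29.8% of all promoters. A match or its absence describes these letters alone.

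Cofactors and other RNA decay genes were read from lists taken from textbook knowledge. No gene of any list passed limma's test in either setting. None (0) of their genes had an unadjusted p under 0.05 at the 75th percentile scaling. The counts that follow are after normexp and quantile normalization. There 45.8% of all genes had negative differences, 16% an unadjusted p under 0.05 and 6.82% such a p with a lower signal. The sign again depended on the slide at the 75th percentile scaling. Within slide 1, 2 of 16 nuclear cofactors, 0 of 18 other exonucleases and decapping genes and 0 of 14 deadenylation genes had positive differences there, and within slide 3 these were 13, 18 and 12. Of all 14426 genes, 6251 were positive within slide 1 and 9556 within slide 3 at that scaling. Of 16 nuclear cofactors, 12 had negative differences and 3 an unadjusted p under 0.05, all lower, with a median of −0.19. Within slide 1 that median was −0.25, and within slide 3 it was −0.05. Mphosph6, which tethers cofactors to the nuclear exosome, had −0.54 with an adjusted p of 0.116. Ncbp2, a subunit of the nuclear cap-binding complex, had −0.39 with an adjusted p of 0.273. Of 5 cytoplasmic cofactors, 4 had negative differences and 2 an unadjusted p under 0.05, with a median of −0.24. With slide as a block 0 of 5 had such a p. The 2 were Hbs1l with −0.36 and Pelo with −0.26, both of which rescue stalled ribosomes.

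Of 18 other exonucleases and decapping genes, 14 had negative differences and 4 an unadjusted p under 0.05, all lower, with a median of −0.07. With slide as a block it was 3 of 18. Lsm7, part of the ring that binds the end of deadenylated mRNA, had −0.39 with an adjusted p of 0.133, and Lsm3 of the same ring had −0.42 with an adjusted p of 0.152. Of 14 deadenylation genes, 13 had negative differences and 2 an unadjusted p under 0.05, both lower, with a median of −0.28. Within slide 1 the median was −0.36 with 2 of 14 positive, and within slide 3 it was −0.02 with 7 of 14 positive. Of all 14426 genes, 7265 and 7855 were positive on these slides. With slide as a block 0 of 14 had an unadjusted p under 0.05. Pan2, a poly(A) nuclease, had −0.39 with an adjusted p of 0.188. Cnot3, a subunit of the CCR4-NOT complex, had −0.39 with an adjusted p of 0.264. Of 9 measured genes of nonsense-mediated decay, 6 had negative differences and 0 an unadjusted p under 0.05, with a median of −0.20. The helicase Upf1 had −0.31 and Smg5 had −0.28. Medians of all these lists lay below the 0.03 of all genes tested, as did that of the exosome subunits. Within slides 1 and 3 the cytoplasmic cofactors had medians of −0.30 and −0.05. Other exonucleases and decapping genes had −0.16 and −0.03, and nonsense-mediated decay genes had −0.17 and −0.13. All genes had 0.00 and 0.04 on these slides.

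Of the regulators linked to exosome genes, none passed the test, and limma adjusted p were 0.74 or higher. Gata1 had a difference of −0.12, Gata2 of 0.00, Foxo3 of 0.09, the GATA-1 cofactor Zfpm1 of −0.05 and the receptor Kit of 0.20. In these cells the signal for Gata1 can include the introduced GATA-1 fusion.

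**Figure D5:**
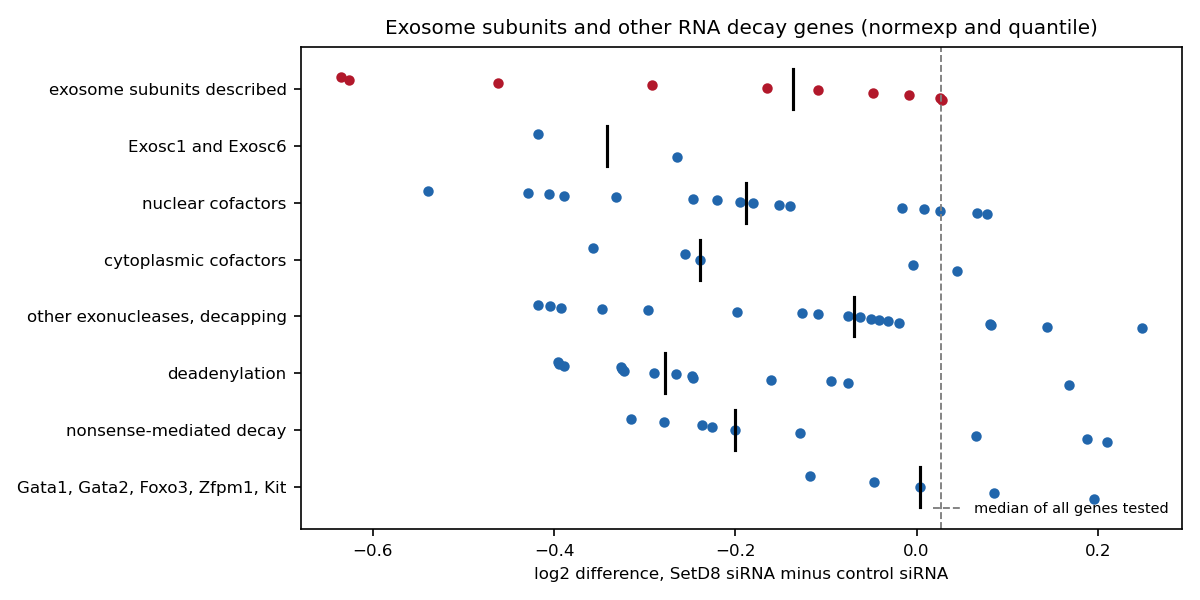
Log2 difference of each gene, SetD8 siRNA minus control siRNA, after normexp and quantile normalization, 1 point per gene, by list, with each list's median as a bar and the median of all genes tested as a dashed line at 0.03. The exosome subunits run from −0.64 to 0.03 around a median of −0.14, and the 14 deadenylation genes lie around a median of −0.28.

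The mean profile of the 10 subunits over the 6 arrays was compared with every other gene by root mean square distance. At the 75th percentile scaling the near genes included Ube2a at 0.025, Mrps7 at 0.028 and Mdh2 at 0.032 log2 units. After normexp and quantile normalization the 5 nearest were Hypk at 0.025, Ptpmt1 at 0.028, Tma7 at 0.029, Mrpl40 at 0.030 and Ube2a at 0.030. The subunits themselves lay 0.105 (Exosc5) to 0.226 (Exosc8) from their own mean profile in that setting.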

How the data were processed

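The deposited values are linear spot intensity of 1-colour Cy3 arrays. Per the file headers, the authors extracted them with Agilent Feature Extraction 10.7.3.1, and probe positions are on mm9. The submitters' processing notes name limma, and the authors' normalization between arrays was not given in the sources used here. The authors' series matrix equalled the processed signal for 100% of values within 0.006.

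Control spots and 139 to 176 outlier spots per array were left out, and 0 spots were saturated. Of 55681 probes, 26762 were named by accession, 3819 by symbol and 639 by synonym, and 24461 had no gene. Probes had to be well above background on every array of 1 group or both, and each gene was read from its remaining probe of highest mean. The main setting was log2 processed signal minus the 75th percentile of non-control spots. Normexp (offset 50) with quantile normalization, an alternative, is given beside it. Differences were tested with limma 3.58.1 in R 4.3.3 (two-sided, Benjamini-Hochberg over 14426 genes, threshold 0.05). The same fit was also run on simulated data, with the spread taken from the real fits. Python 3.11.15, pandas 2.3.3, numpy 2.4.6 and matplotlib 3.10.9 were used.

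Members, lists and tests were chosen with earlier results of these data known. Named were all subunits, Setd8, Exosc1, Exosc6, Gata1, Gata2, Foxo3, Zfpm1, Kit, the 5 nearest profiles in each setting (some are not reported here) and, of each other list, genes that passed or else the 2 with the smallest p. The labels do not state whether the replicate numbers pair the samples, and the main fits used no pairing. Deviation correlations of same-numbered arrays were 0.24, −0.27 and −0.37 at the 75th percentile scaling. With 3 arrays per group, some of them sharing slides, these cannot show whether the samples were paired.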

Additional observations from a re-analysis of the deposited data

How the results depend on the processing

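At the 75th percentile scaling 0 genes were called. Normexp with quantile normalization called 238, normexp with the 75th percentile 49, an offset of 16 with quantile 133, quantile normalization 47, the percentile over detected probes 128, only genes detected on all arrays 133, trend and robust moderation 15, array weights 3085 and slide as a block 131. Leaving out each array gave 0 to 138, the 138 without control array 2. Array weights alone among these called subunits, 4 of 10 (Exosc3, Exosc7, Exosc8 and Dis3), with 19 of 69 genes of the other lists and 21.4% of all genes. Median scaling moved the subunits' median to −0.81, and that of all genes to −0.45. Setd8 passed in 8 of these settings, with −2.08, −2.23, −2.14, −2.10, −2.10, −2.23, −2.39 and −1.95 in the order normexp with quantile, normexp with the 75th percentile, offset 16, quantile, detected percentile, detected genes, array weights and slide block, and without control array 2. It was −2.69 to −1.85 when each array was left out.

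After normexp and quantile normalization, the count of 238 became 133 with an offset of 16, 631 over genes detected on all arrays, 995 with trend and robust moderation, 2060 with array weights, 19 with slide as a block and 0 to 212 when each array was left out. It was 0 without control array 1, SetD8 array 1 or SetD8 array 2, 5 without SetD8 array 3 and 100 without control array 2. Subunits called were 2 over detected genes and 2 with moderation (Exosc8 and Dis3), 3 with array weights (with Exosc7), and 0 in the other settings. Of 69 genes of the other lists, 3 were called with moderation and 12 with array weights, which called 6.9% and 14.3% of all genes. With the replicate block 0 genes were called, and Setd8 was −2.08 with a limma adjusted p of 0.141; no subunit's call changed. Setd8 lay between −2.19 and −2.01 when each array was left out, with an adjusted p above 0.05 without control array 1 (0.0626), SetD8 array 1 (0.0631), 2 (0.0757) or 3 (0.0628).

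Differences near 0 changed sign. From the 75th percentile scaling, Exosc2 turned to 0.028 with normexp and quantile, 0.028 with offset 16, 0.022 with quantile and 0.068 with slide as a block. Exosc10 turned to 0.026, 0.027, 0.090 and 0.118 in the same settings and to 0.081 with the detected percentile. With slide as a block Exosc9 was 0.0024 and Dis3l 0.122. Leaving out each array gave −0.41 to 0.10 for Exosc2, −0.30 to 0.165 for Exosc10, −0.51 to 0.029 for Exosc4, −0.47 to 0.00092 for Exosc9 and −0.55 to 0.176 for Dis3l. After normexp and quantile normalization Exosc10 was −0.0098 with the mean of its probes and −0.036 with slide as a block, and Dis3l 0.048 with slide as a block. Leaving out each array then gave −0.099 to 0.102 for Exosc10, −0.097 to 0.054 for Dis3l and −0.112 to 0.0032 for Exosc4. The causes were not tested. Exosc3, Exosc5, Exosc7, Exosc8 and Dis3 kept negative differences in all 20 alternatives to the first setting and all 14 to the second, with Exosc8 at −1.23 to −0.43 and Dis3 at −1.22 to −0.34 over the 20.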
